A study of Mus musculus with 36 samples.

Results

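TBP CUT&RUN summits were described in RT10 mouse embryonic stem (ES) cells given the inducer of Taf10 deletion or ethanol alone. All summits of the ethanol (EtOH) list and of the 4-hydroxytamoxifen (4-OHT) list were taken, which gave 3102 and 2188 summits, together 5290 of the 9335 TBP summits of the series. The RT10 line has the genotype R26CreERT2/+;Taf10flox/flox, so that Taf10, floxed on both alleles, is cut by a tamoxifen-activated Cre recombinase expressed from the Rosa26 locus. Cells grew on gelatin with leukemia inhibitory factor, CHIR99021 and PD0325901, and received 4-OHT or EtOH from day 1 to day 3. The EtOH cells carry the same floxed alleles and the same Cre. Per the labels each treatment had 2 TBP libraries and 1 IgG control library, and 1 summit list per treatment was used; whether the libraries were pooled is not stated. The 4-OHT IgG library carries an ethanol treatment label, against its title, and the title was used. How many clones stand behind the line is not stated.

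TBP, the TATA-binding protein, enters RNA polymerase II promoters mainly as part of TFIID, a complex of TBP and its associated factors (TAFs). TAF10 is a subunit of TFIID and also of the SAGA coactivator. TBP also works outside TFIID, in SL1 for RNA polymerase I and in TFIIIB for RNA polymerase III, which transcribes tRNA genes. A summit is the highest point of a called peak, and its deposited score is the −log10 q-value of TBP over IgG there. A summit is called kept when the other list has a summit within 250 bp, and EtOH-only or 4-OHT-only when the other list has none within 1000 bp. With 1 list per treatment no difference between treatments could be tested, and intervals in parentheses are exact Clopper-Pearson 95% intervals that cover counting error only. A gene without a summit had no called peak, which does not show that TBP was absent.

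The loss of TAF10 itself was not checked, since TAF10 binding was not analysed here. Neither Taf10, Taf7, Taf12 nor Tbp had TBP summits 500 bp or less from their ends in any list, and the summit nearest to Taf12 lay 3770 bp away in the EtOH list. Of 12 ES cell marker genes 8 had a TBP summit in EtOH (Sox2, Nanog, Klf2, Tfcp2l1, Zfp42, Dppa3, Tdgf1 and Fgf4) and 4 of these also had one in 4-OHT (Nanog, Klf2, Tfcp2l1 and Fgf4). The other 4 had none in 4-OHT, as had 47.7% of all 1466 protein-coding genes bound in EtOH. Of 9 fibroblast markers Fn1 alone had one in EtOH and 0 had one in 4-OHT. TBP summits are not expression, so these counts describe binding at the marker genes.

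Promoters of the highest-scoring summits at protein-coding starts of known strand are shown first, 100 bases each, from 70 bases before the RefSeq start to 29 bases after it (GRCm38.p6, the assembly of mm10), read 5′ to 3′ on the gene's strand. Capitals mark matches on either strand to the motifs searched, such as TATAAA, the core of the TATA box that TBP itself binds, CCAAT, the box bound by NF-Y, and GGGCGG, the GC box bound by Sp1-type factors. The first 3 belong to protein-coding genes with a summit in both lists, at Calr, which encodes the calcium-binding chaperone calreticulin, H2ac6, a replication-dependent histone H2A gene, and Med16, a Mediator subunit gene.
Calr, chr8:84846902-84847001, minus strand: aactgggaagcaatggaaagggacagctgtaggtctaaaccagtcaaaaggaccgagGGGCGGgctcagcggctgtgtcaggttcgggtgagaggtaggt
H2ac6, chr13:23683930-23684029, minus strand: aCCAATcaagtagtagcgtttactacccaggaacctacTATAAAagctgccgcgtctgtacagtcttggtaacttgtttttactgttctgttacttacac
Med16, chr10:79908909-79909008, minus strand: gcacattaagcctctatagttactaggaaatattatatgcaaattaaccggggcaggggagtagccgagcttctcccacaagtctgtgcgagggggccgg
The next 3 lacked a 4-OHT summit within 1000 bp. They lie at Mt1, which encodes a metal-binding metallothionein, Slbp, which encodes the protein that binds the stem loop of histone mRNA, and Ddit3, which encodes the stress-response transcription factor CHOP.
Mt1, chr8:94179019-94179118, plus strand: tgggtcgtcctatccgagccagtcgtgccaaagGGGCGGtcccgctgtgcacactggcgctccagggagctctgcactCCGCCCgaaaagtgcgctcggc
Slbp, chr5:33652545-33652644, minus strand: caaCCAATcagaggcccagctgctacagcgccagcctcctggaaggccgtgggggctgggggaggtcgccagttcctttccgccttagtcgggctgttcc
Ddit3, chr10:127290723-127290822, plus strand: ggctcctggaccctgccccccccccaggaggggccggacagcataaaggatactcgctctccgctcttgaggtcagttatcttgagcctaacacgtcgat
The following 3 belong to the 4-OHT-only sites. H1f1 is a linker histone gene, Rab5a encodes a GTPase of early endosomes and Mapre1 the microtubule plus-end protein EB1.
H1f1, chr13:23763598-23763697, plus strand: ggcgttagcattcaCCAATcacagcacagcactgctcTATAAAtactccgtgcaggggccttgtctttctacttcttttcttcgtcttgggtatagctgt
Rab5a, chr17:53479164-53479263, plus strand: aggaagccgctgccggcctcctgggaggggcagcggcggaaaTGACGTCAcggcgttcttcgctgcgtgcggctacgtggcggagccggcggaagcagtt
Mapre1, chr2:153741217-153741316, plus strand: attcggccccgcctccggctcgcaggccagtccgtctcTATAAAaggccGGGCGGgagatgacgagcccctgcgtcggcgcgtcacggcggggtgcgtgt
The last 3 are kept promoters with TATAAA shortly before the start, at Polr2a, the gene of the largest RNA polymerase II subunit, Nqo1, a quinone reductase gene, and H3f3b, a gene of the replication-independent histone H3.3.
Polr2a, chr11:69758604-69758703, minus strand: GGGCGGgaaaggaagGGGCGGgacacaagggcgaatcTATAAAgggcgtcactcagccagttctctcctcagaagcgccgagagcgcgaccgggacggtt
Nqo1, chr8:107403176-107403275, minus strand: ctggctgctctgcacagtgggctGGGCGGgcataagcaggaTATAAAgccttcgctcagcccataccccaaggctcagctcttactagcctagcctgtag
H3f3b, chr11:116024475-116024574, minus strand: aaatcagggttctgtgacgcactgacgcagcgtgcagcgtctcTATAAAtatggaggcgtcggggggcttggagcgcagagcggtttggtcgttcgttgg

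Of 9 motifs searched, TATAAA near the start was several times more frequent in kept than in EtOH-only promoters. Each promoter counted had a summit within 500 bp of its start. On the gene strand, with its first base 45 to 15 bases before the start, it lay in 35 of 519 kept promoters (6.74%, 4.74 to 9.25) and in 7 of 496 EtOH-only promoters (1.41%, 0.569 to 2.89). It lay there in 2.76% of all 21263 protein-coding promoters of the RefSeq table, a level below the interval of the kept promoters and inside that of the EtOH-only promoters. Of the 104 4-OHT-only promoters 4 held it (3.85%, 1.06 to 9.56), an interval that covers both other shares. Kept promoters had higher scores than EtOH-only promoters, so the shares were also taken within score ranges. In the higher-scoring 50% of EtOH promoters (scores of 6.45 or more) the shares were 28 of 372 kept (7.53%) and 1 of 131 EtOH-only (0.763%), and in the lower-scoring 50% they were 7 of 147 (4.76%, 1.94 to 9.57) and 6 of 365 (1.64%, 0.606 to 3.54). The intervals overlap in the lower range and not in the higher one. Without the histone genes, many of which hold a TATA box, the kept share was 5.84% and the EtOH-only share 1.41%, and after the EtOH list was shortened to the 4-OHT length they were 7.49% and 1.42%. In RT7 cells, the companion line of the series with floxed Taf7, the same shares were 7.77% of 386 kept and 1.99% of 502 EtOH-only promoters.

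The kept promoters with TATAAA at this position include Polr2a (EtOH score 66.8, 4-OHT score 36.0), Nqo1 (55.4 and 23.4), H3f3b (46.1 and 23.4) and the immediate early gene Fos (39.5 and 11.3). Srsf2, a splicing factor gene (34.9 and 31.6), and Ckb, the brain creatine kinase gene (23.2 and 6.33), also belong to them. Lower-scoring kept members were Sod1, superoxide dismutase (8.13 and 5.49), Tfcp2l1, a naive pluripotency factor (7.18 and 10.2), and Taf13, a TFIID subunit gene (8.23 and 3.68). In these promoters the TATAAA began 27 to 37 bases before the start, at 32 bases for Taf13 and 33 for Polr2a and Fos. The 7 EtOH-only members were Irf8 (7.48), Rnd3 (5.84), Plet1 (5.00), Abca1 (4.06), Errfi1 (3.33), Lbh (2.44) and Acy3 (2.44), none of them above 7.48. The 4 4-OHT-only members were H1f1 (19.1), Mapre1 (13.1), Cdkn2aip (12.3) and Rpl22l1 (5.41).

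The other motifs were searched on both strands of windows of 300 bases, from 250 before the start to 50 after it. CACGTG, the E-box bound by MYC, USF and TFEB-type factors, lay in 109 of 519 kept promoters (21.0%, 17.6 to 24.8), 67 of 496 EtOH-only (13.5%, 10.6 to 16.8) and 33 of 104 4-OHT-only promoters (31.7%, 22.9 to 41.6), against 7.84% of all promoters. The 4-OHT-only share lay above the EtOH-only share with intervals that do not overlap, and its interval overlaps that of the kept promoters. Among the lower-scoring 50% of EtOH promoters the E-box lay in 29.3% (22.0 to 37.3) of kept and 14.2% (10.8 to 18.3) of EtOH-only promoters, and among the higher-scoring 50% in 17.7% and 11.5%, with intervals that overlap. At equal list length the shares over all scores were 20.04%, 12.1% and 29.1%. In RT7 they were 17.9%, 15.3% and 15 of 60 (25%, 14.7 to 37.9). The YY1 element lay in 10 4-OHT-only promoters (9.62%, 4.71 to 17.0), 2.50% of kept, 3.23% of EtOH-only and 1.21% of all promoters, but in 1.67% of the 4-OHT-only promoters of RT7. For the GC, NF-Y and ETS motifs the intervals of kept and EtOH-only promoters overlap. GGGCGG lay in 69.9% of kept and 73.6% of EtOH-only promoters against 46.2% of all, CCAAT in 55.5% and 52.6% against 38.2%, and CCGGAAG, the ETS element, in 14.1% and 17.5% against 11.6%. TATAAA anywhere in the window lay in 16.2% (13.1 to 19.6) of kept and 8.47% (6.17 to 11.3) of EtOH-only promoters, against 12.6% of all. Among the higher-scoring 50% of EtOH promoters these shares were 18.01% (14.2 to 22.3) and 6.11% (2.67 to 11.7). Among the lower-scoring 50% they were 11.6% (6.88 to 17.9) and 9.32% (6.54 to 12.8), with intervals that overlap. TGACGTCA, the CREB element, the palindromic CGCG element and the NRF1 element each lay in 1.54% to 3.47% of kept and 1.81% to 3.02% of EtOH-only promoters, against 0.673% to 2.23% of all. A motif match is a description of the letters, and TBP summits lie at GC-rich promoters: the median GC share was 60.3% in kept, 61.3% in EtOH-only and 56.3% in all promoters.

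**Figure D1:**
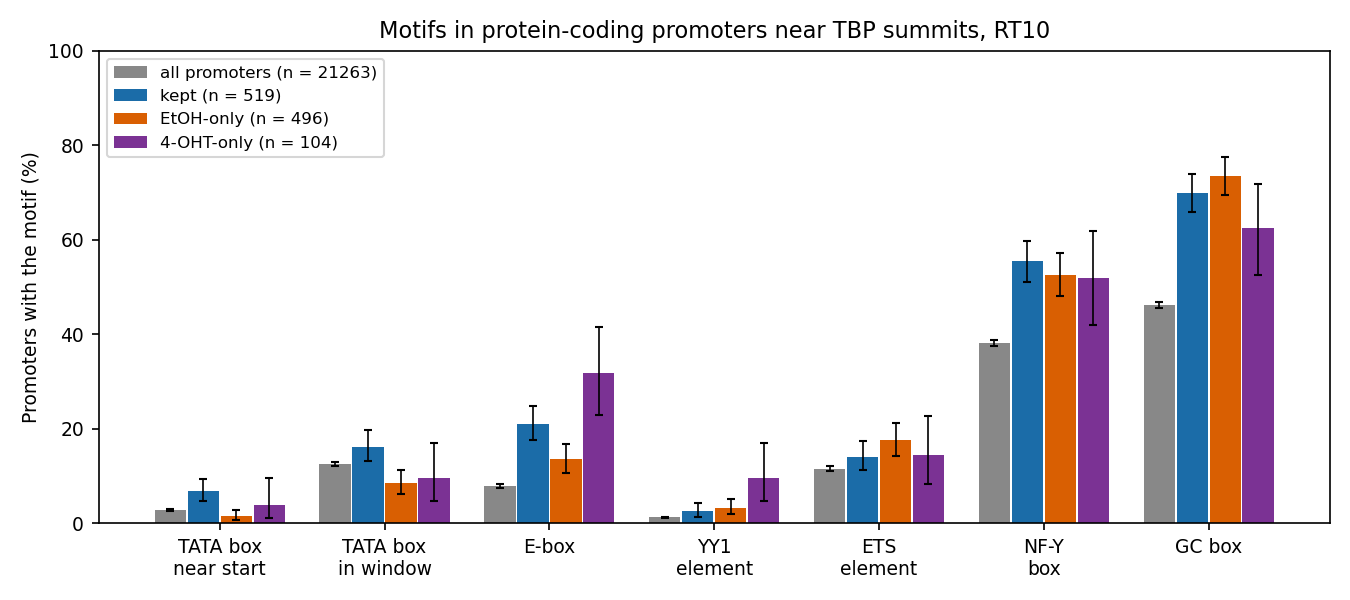
Share of protein-coding promoters (%, y axis) that hold each motif (x axis), for all promoters of the RefSeq table and for those near kept, EtOH-only and 4-OHT-only summits of RT10; bars are shares and lines exact 95% intervals. A TATA box near the start lay in 6.74% of kept and 1.41% of EtOH-only promoters, and the E-box in 31.7% of 4-OHT-only promoters.

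The summits lay just upstream of gene starts whether or not they were kept. The median position was -119 bp from the start for 523 kept summits, -109 bp for 497 EtOH-only summits and -85 bp for 104 4-OHT-only summits. Upstream of the start lay 71.9% of the kept, 73.4% of the EtOH-only and 60.6% of the 4-OHT-only summits. Positions of kept and EtOH-only summits thus had much the same spread, while the 104 4-OHT-only summits are few for a comparison of shape.

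**Figure D2:**
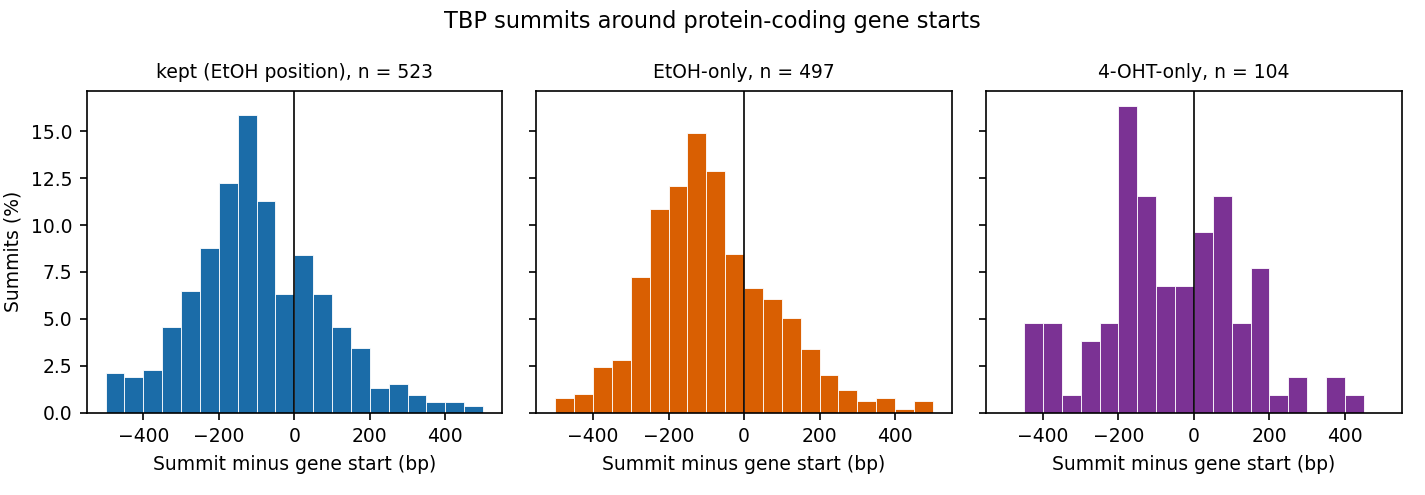
Distance of TBP summits from the nearest protein-coding gene start (bp, x axis; negative values are upstream) as a share of summits (%, y axis) in bins 50 bp wide, for kept, EtOH-only and 4-OHT-only summits of RT10. In each panel most summits lie before the start (71.9%, 73.4% and 60.6%).

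Whether an EtOH summit had a 4-OHT partner followed its score. Of all EtOH summits 1492 were kept (48.1%, 46.3 to 49.9), 234 had a 4-OHT summit 251 to 1000 bp away (7.54%) and 1376 were EtOH-only (44.4%). In the other direction 1491 of the 4-OHT summits had an EtOH partner (68.1%, 66.1 to 70.1) and 473 were 4-OHT-only (21.6%). In the lowest of 10 score bins of equal number 17.7% (13.6 to 22.4) were kept and in the highest bin 92.0% (88.4 to 94.7), where 9 of 311 were EtOH-only. The 4-OHT list went from 41.6% to 90.9% over its own bins. The median EtOH score was 10.2 for kept and 4.06 for EtOH-only summits, and the median 4-OHT score was 7.39 for those with a partner and 3.68 for 4-OHT-only summits. Just inside the pairing limit, 226 to 250 bp, lay 49 EtOH summits, and 24 lay at 251 to 275 bp. Near the other limit 16 lay 901 to 1000 bp and 11 lay 1001 to 1100 bp from a 4-OHT summit.

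**Figure D3:**
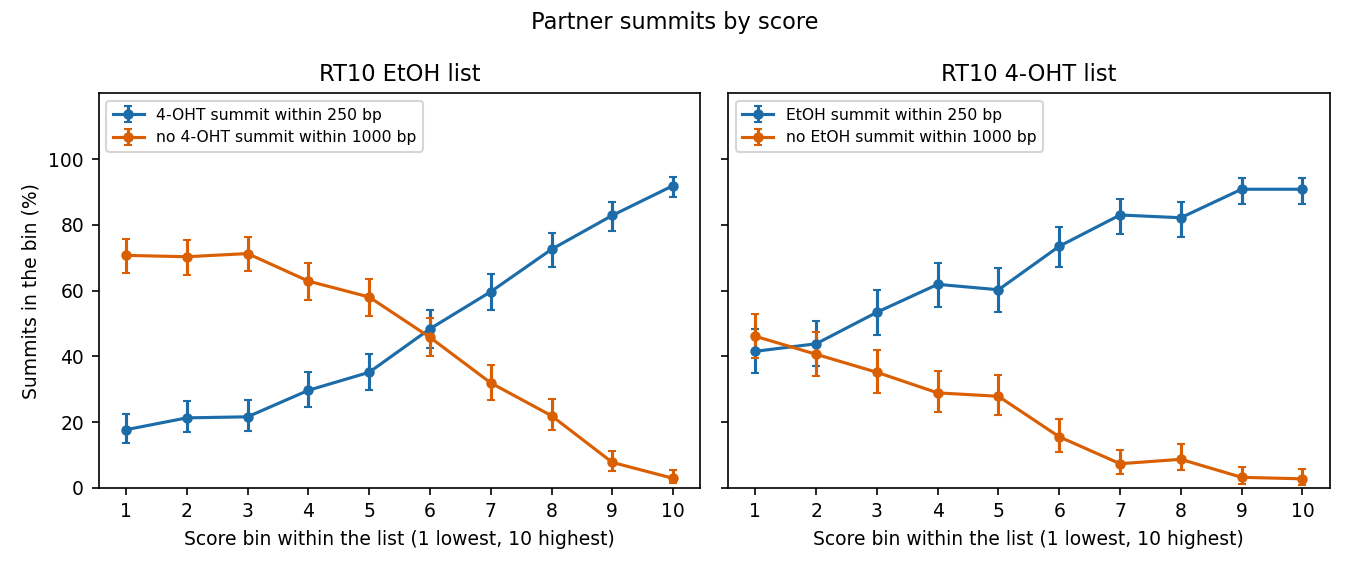
Share of summits (%, y axis) with a partner within 250 bp and without one within 1000 bp, in 10 bins of the deposited score within each list (x axis); lines at the points are exact 95% intervals. From the lowest to the highest bin the EtOH list goes from 17.7% to 92.0% kept and the 4-OHT list from 41.6% to 90.9%.

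The lists differ in length, so the EtOH list was also cut by score to 2188 summits, with 4.06 as the lowest score. Of these 1304 (59.6%) were kept and 733 (33.5%) had no 4-OHT summit within 1000 bp, while 688 4-OHT summits (31.4%) had no summit of the shortened list there. Equal lengths with similar paired counts (1304 and 1306) leave similar remainders by construction, so their closeness is no result about the treatment. Paired summits lay a median of 60 bp apart (quartiles 26 and 114), and 43.8% of pairs lay within 50 bp. Over the 1492 pairs the EtOH and 4-OHT scores had a Spearman rho of 0.65. It is given as a description because each list has its own control and read depth is unknown. Of the 100 highest EtOH summits 92 had a partner somewhere in the 4-OHT list and 56 had one among its 100 highest.

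At protein-coding starts the kept share was close to that of the whole list, and at RNA polymerase III genes it was higher. Of 1012 EtOH summits within 500 bp of a protein-coding start 48.0% (44.9 to 51.2) were kept and 467 were EtOH-only. Of 158 summits at genes of RNA polymerase III, mostly tRNA genes, 77.2% (69.9 to 83.5) were kept and 10 were EtOH-only. Summits inside genes away from their ends were kept in 42.5% (38.8 to 46.2) of 718 cases, those between genes in 46.1% of 794, and those at lncRNA gene ends in 48.9% of 182. RNA polymerase III summits scored high, with 118 of 158 in the upper of 3 score ranges of equal number. Within that range 84.7% (77.0 to 90.7) of them were kept, against 77.8% (73.1 to 82.0) at protein-coding starts and 80.6% overall. The intervals overlap there, as they do in the middle range, where the shares were 53.8% (33.4 to 73.4) of 26 and 39.8% (34.5 to 45.2) of 332. In the lower range they do not overlap, with 57.1% (28.9 to 82.3) of 14 RNA polymerase III summits and 23.1% (18.6 to 28.1) of 320 summits at protein-coding starts kept.

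At equal length the EtOH list held 727 summits at protein-coding starts and the 4-OHT list 624, of which 264 and 168 had no partner within 1000 bp. RNA polymerase III summits went the other way, with 145 in the shortened EtOH list and 169 in the 4-OHT list, and so did summits inside genes, with 465 and 536. The cut took low-scoring summits from the EtOH list only, so these counts depend on it. In the whole EtOH and 4-OHT lists RNA polymerase III summits made up 5.09% and 7.72%, and summits inside genes 23.1% and 24.5%. Protein-coding starts made up 32.6% of the whole EtOH list and 28.5% of the 4-OHT list. Of the 4-OHT-only summits 100 lay at protein-coding starts, 16.03% of the 624 there, and 174 lay inside genes, 32.5% of 536. In the lower 4-OHT score range 58.9% (51.3 to 66.2) of summits at starts had an EtOH partner, against 38.3% (31.9 to 45.03) of those inside genes.

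**Figure D4:**
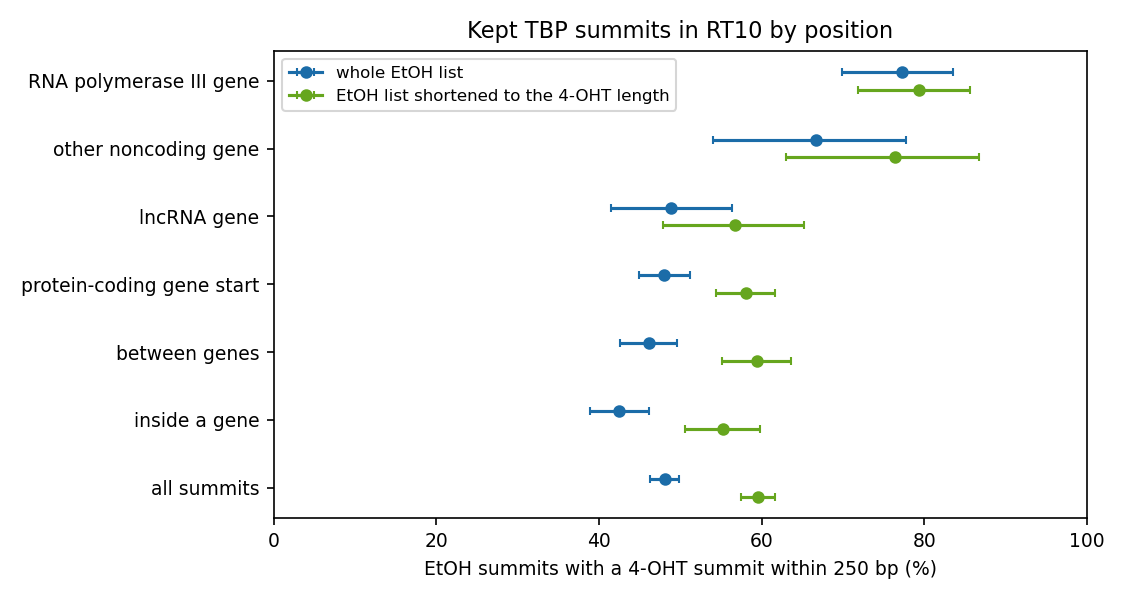
Share of RT10 EtOH summits with a 4-OHT summit within 250 bp (%, x axis) by position class (y axis), for the whole EtOH list and for the list shortened to the 4-OHT length; points are shares and lines exact 95% intervals. RNA polymerase III genes lie at 77.2% and 79.3%, and protein-coding starts at 48.0% and 58.0%.

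Most RNA polymerase III summits without a partner within 1000 bp had one slightly farther away. Each peak had 1 listed summit, so a peak over several genes has 1 position. Of the 10 EtOH-only RNA polymerase III summits 8 had a 4-OHT summit 1001 to 3000 bp away, as had 9 of the 13 4-OHT-only ones in the other direction. At protein-coding starts this held for 16 of 467 EtOH-only and 7 of 100 4-OHT-only summits. The tRNA gene n-TGgcc6 on chromosome 13 (EtOH score 57.1) and n-TQttg4 beside it (4-OHT score 58.9) have summits 1463 bp apart. Kept RNA polymerase III summits include n-TYgta7 (80.2 and 52.0), n-TWcca7 (79.7 and 85.6) and n-TKctt29 (74.3 and 45.6). The RNA polymerase II gene of the U8 small nucleolar RNA, Snord118, was kept at 36.8 and 17.0. Of the 2 mitochondrial summits of each list 1 had a partner.

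By gene, 1466 protein-coding genes had a summit within 500 bp of either end in EtOH and 943 in 4-OHT, with 766 in both. Thus 700, or 47.7%, of the genes bound in EtOH had no 4-OHT summit there, and 177, or 18.8%, of those bound in 4-OHT had no EtOH summit. From the shortened EtOH list 406 of 1082 bound genes (37.5%) lacked a 4-OHT summit, and 267 of the 943 4-OHT genes (28.3%) lacked one in the shortened list. Each gene group below is read against these shares. Scores are given as EtOH and 4-OHT values side by side. Read depth is unknown and each list has its own control, so a score difference is no measure of change.

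Mt1 led the EtOH-only genes at a distance from clusters. Its summit on chromosome 8 at position 94179082, 7 bp from the start, scored 28.8, and 142047 bp separated it from any 4-OHT summit, while RT7 had summits there with scores of 24.1 in EtOH and 23.5 in 4-OHT. Slbp (24.8, chromosome 5, position 33652563) had RT7 scores of 19.4 and 9.15. Ddit3, at a summit shared with Mbd6 (19.9), and Zfp143 (19.9), the gene of a zinc finger activator of small nuclear RNA genes, had RT7 EtOH summits of 5.57 and 12.6 and no RT7 4-OHT summit within 250 bp. The score of Hes7 (61.7), a segmentation clock gene, was higher, but its summit lies beside tRNA genes and had a 4-OHT summit 1005 bp away. Cyth2 and Impa2 (17.5 each), Gpx1, the glutathione peroxidase gene, Zfp42, the gene of the naive marker REX1, Rps21 and Nabp1 (16.3 each), and Hes1, a Notch target gene, and Ing2 (14.5 each) followed. Of the 20 EtOH-only genes with the highest scores 19 had a summit within 250 bp in RT7 EtOH and 8 had one in RT7 4-OHT. Over all EtOH-only summits at protein-coding starts these shares were 39.6% and 11.3%, and the 20 were picked by score. A summit 199 bp from an end of Gt(ROSA)26Sor, the Rosa26 gene where the line carries its Cre, scored 14.0 in EtOH and its nearest 4-OHT summit lay 229522 bp away. RT7 EtOH had a summit 296 bp from it. It also lies within 500 bp of Setd5.

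Among the 20 genes of highest 4-OHT score without an EtOH summit within 1000 bp, 4 lay in tRNA or histone clusters with an EtOH summit 1164 to 1828 bp away. These were Aloxe3 (66.6), H1f1 (19.1), H4c9 (12.3) and H3c4 (12.3). Rab5a (17.1; chromosome 17, position 53479056) was 210332 bp from the nearest RT10 EtOH summit and had an RT7 EtOH summit of 20.6. Mapre1 (13.1; chromosome 2, position 153741175) had no summit within 250 bp in the other 3 lists, nor had Togaram1 with Klhl28 (12.3) or Id1 (10.2), the gene of a BMP-induced inhibitor of helix-loop-helix factors. Ctsd, the lysosomal protease cathepsin D (9.74), Atg14, an autophagy factor (8.24), and Mcm2, a subunit of the replicative helicase (8.24), were further members. Of the 20 genes 8 had a summit within 250 bp in RT7 EtOH and 7 in RT7 4-OHT. Over all 4-OHT-only summits at protein-coding starts these shares were 27% and 14%, and the 20 were picked by score.

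**Figure D5:**
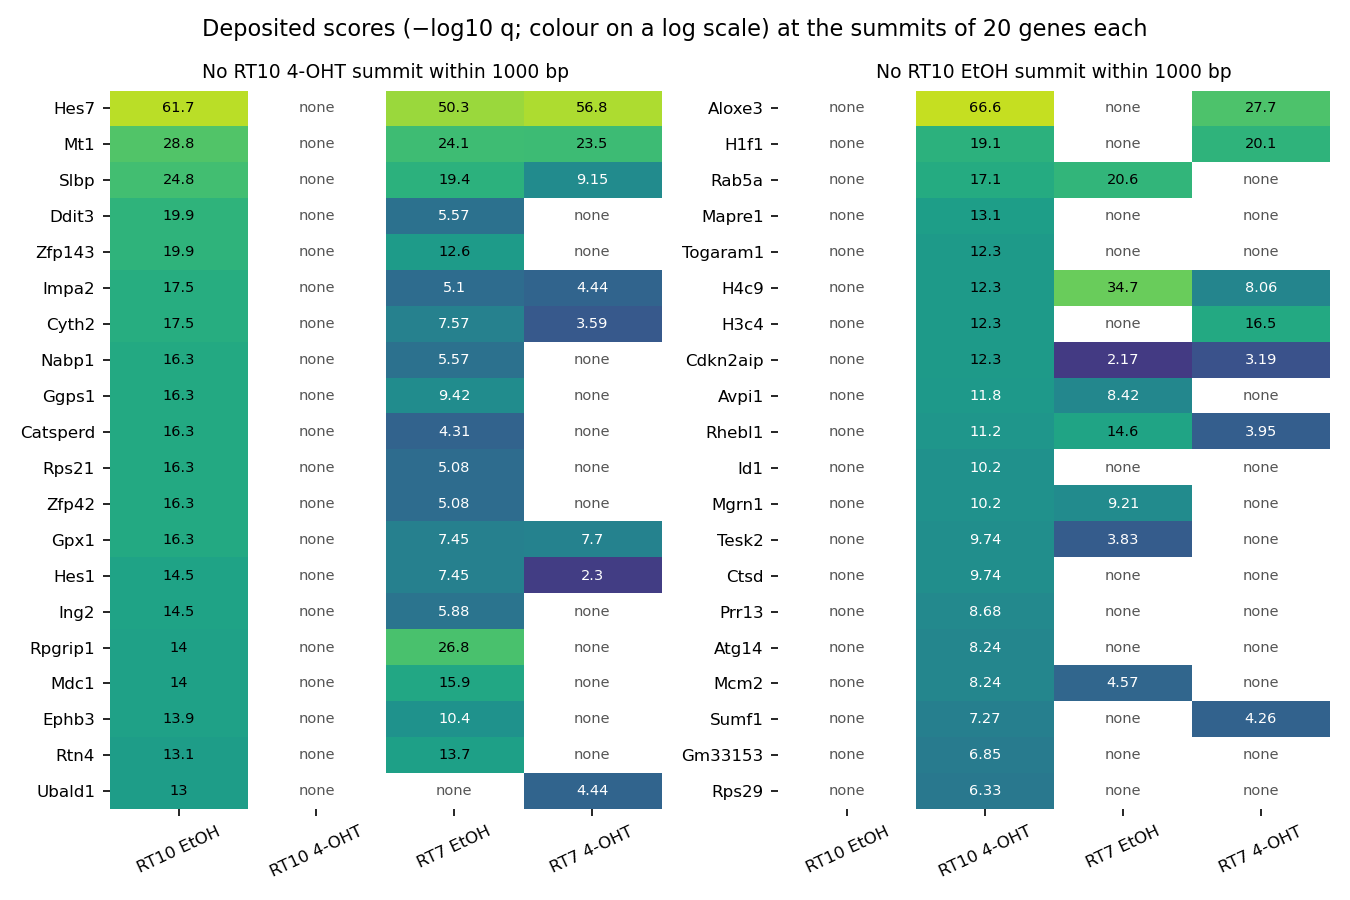
Deposited scores (−log10 q, colour on a log scale) at the summits of the 20 protein-coding genes that head the RT10 EtOH-only sites (left) and the RT10 4-OHT-only sites (right), in the 4 lists of the series (columns); none means no summit within 250 bp. Mt1 has scores of 28.8, 24.1 and 23.5 in every list but RT10 4-OHT.

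Kept sites were shared with RT7 more often than sites of 1 treatment. Of the kept summits 78.4% (76.2 to 80.4) had a summit within 250 bp in RT7 EtOH and 55.0% in RT7 4-OHT. Of the EtOH-only summits 33.4% (30.9 to 35.9) had one in RT7 EtOH and 10.9% in RT7 4-OHT, and of the 4-OHT-only summits 24.5% (20.7 to 28.7) and 9.73%. At protein-coding starts 85.8% of kept and 39.6% of EtOH-only summits had one in RT7 EtOH, and 27% (18.6 to 36.8) of 4-OHT-only summits. EtOH-only summits also had lower scores than kept ones, and the part of the score in this difference was not tested.

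The highest kept summits at protein-coding genes lay at Calr (143.9 and 106.9), H2ac6 with H2bc4 (135 and 148), Med16 (122 and 119) and H3c1 (118 and 99.99). The Med16 summit, 168 bp from the gene start, also lies within 500 bp of Gm24019 and cannot be given to either gene alone. Arrdc2, an arrestin-domain gene (103 and 32.0), Tubb4b, a beta-tubulin gene (99.2 and 71.3), Ing1 (99.0 and 26.9) and Traf7 (96.6 and 20.7) came next. Replication-dependent histone genes were bound in both treatments: of 65 members 35 had a summit in EtOH, 37 in 4-OHT and 33 in both. Of the members bound in EtOH 5.71% had no 4-OHT summit, beside 47.7% over all bound genes. Their median EtOH score was 45.2, inside the highest score bin, where 92.0% of all summits were kept. The part of the score in this share was not tested. H2ac1 and H2bc1, which share a summit (5.84), were bound in EtOH alone, and H1f1 (19.1), H3c3 (5.41), H3c4 (12.3) and H4c9 (12.3) in 4-OHT alone. Examples in both lists were H3c6 (55.6 and 42.8) and H3c7 (39.8 and 39.9). Divergent pairs such as H2ac12 and H2bc12 (89.1 and 54.3) share a summit and count as 2 genes.

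Genes that supply and process histones had more members bound in EtOH than in 4-OHT, as had protein-coding genes as a whole (1466 and 943). Of 20 members 7 had an EtOH summit, 2 also had one in 4-OHT and 5 did not, a share of 71.4% beside 47.7% over all bound genes, from few genes. The 5 were Slbp (24.8), Asf1b (12.1), Chaf1a (9.74), Set (9.74) and Casp8ap2 (4.58). Asf1b, a histone chaperone gene, shares its summit with the lncRNA gene Gm10644, and Chaf1a encodes a subunit of the chromatin assembly factor CAF-1. Nasp, a chaperone of histones H3 and H4 (54.1 and 33.1), and Anp32e (14.0 and 8.24) had summits in both lists. All 7 were in the shortened EtOH list, so the 5 remained without a 4-OHT summit at equal length. The share was thus again 71.4%, beside 37.5% over all bound genes at that length, and it was not tested. Of 43 DNA replication factors 9 were bound in EtOH and 5 in 4-OHT, 3 of them in both. The share of EtOH-bound members without a 4-OHT summit was 66.7%, beside 47.7% over all bound genes, and rests on 9 genes. At equal length 3 of 6 lacked one, beside 37.5% over all bound genes. Those bound in EtOH alone include Pcna, the sliding clamp gene (9.74), Mcm4 (6.26), Mcm7 and Cdt1 (4.06 each) and Cdc45 (3.71). Mcm2 (8.24) and Mcm5 (3.40) were bound in 4-OHT alone, and Fen1 (13.4 and 18.4), Gins2 (12.3 and 1.63) and Orc6 (8.67 and 6.33) in both.

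Pluripotency genes lay near the overall share by count and immediate early genes below it, without a test. Among 28 pluripotency genes EtOH summits lay at 14 and 4-OHT summits at 7 of the same 14, a share without a 4-OHT summit of 50% beside 47.7% over all genes. Nanog (41.3 and 9.02), Stat3 (10.8 and 5.49) and Tfcp2l1 (7.18 and 10.2) were in both, and Nr5a2 had scores of 4.06 and 2.88. At equal length 11 were bound in EtOH and 4 of them lacked a 4-OHT summit. Of 25 immediate early genes 13 were bound in EtOH, 12 in 4-OHT and 10 in both. Klf6 (58.6 and 51.4), Dusp1 (28.7 and 15.0), Junb (15.2 and 12.3) and Ier5 (11.8 and 12.3) were in both. Klf10 (6.77), Srf (3.23) and Jun (2.00) were bound in EtOH alone and Ier3 and Jund (2.62 each) in 4-OHT alone. The share without a 4-OHT summit was 23.1%, and the bound members had a median EtOH score of 15.2, above the list median of 5.84.

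Ribosomal protein genes lay near the overall share, and smaller lists of translation and energy genes lay on both sides of it. Of 84 cytoplasmic ribosomal protein genes, EtOH bound 38, 4-OHT 23 and both lists 21, and 44.7% of those bound in EtOH lacked a 4-OHT summit. Rps21 (16.3), Rpl27 (10.6), Rpl7 (7.73) and Rpl36, Rplp1 and Rps15a (6.77 each) lacked one, and Rpl22l1 (5.41) and Rps29 (6.33) were bound in 4-OHT alone. Rps28, which shares its summit with the complex I gene Ndufa7, had scores of 1.98 and 20.3. The Rps29 summit also lies at Rn7s1, an RNA polymerase III gene of the signal recognition particle RNA, and cannot be given to either gene alone. Of 78 oxidative phosphorylation genes 11 had EtOH summits and 4 had 4-OHT summits, and the 7 without a 4-OHT summit (63.6%) include Uqcrq (10.8) and Ndufv1 (6.77). Translation factors had 15 and 13 bound of 45 and 10 in both, and 33.3% of those bound in EtOH lacked a 4-OHT summit. Examples in both were Eif4a1 (51.4 and 32.0) and Eif3b (21.1 and 41.4), with Eif5 (10.8) in EtOH alone. Glycolysis genes had 7 and 3 bound of 20, and 57.1% of those bound in EtOH lacked a 4-OHT summit. Gapdh (12.9 and 10.7) and Tpi1 (22.6 and 4.51) were in both and Pgk1 and Pkm (10.8 each) in EtOH alone.

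Stress gene lists lay near or below the overall share of EtOH-bound genes without a 4-OHT summit, from few genes and without a test. Beside 47.7% over all bound genes, it was 47.1% for heat shock and 44.4% for p53 target and damage response genes. It was 28.6% each for unfolded protein and integrated stress genes and for metallothionein and oxidative stress genes. Their median EtOH scores of 19.9 and 15.7 lay above the list median of 5.84. Of 29 heat shock genes and co-chaperones 17 were bound in EtOH and 9 of these in 4-OHT. Hsp90ab1 (26.1 and 26.4), Hspa5, the endoplasmic reticulum chaperone BiP (15.6 and 20.3), and Hsp90aa1 (11.8 and 12.3) were in both, and Dnaja1 (8.97), Hspb8 (8.28), Hsp90b1 (7.73) and the divergent pair Hspd1 and Hspe1 (4.06) in EtOH alone. Of 26 genes of the unfolded protein and integrated stress responses 7 and 5 were bound, with Ppp1r15a (30.0 and 17.0) and Pdia4 (24.9 and 16.8) in both and Ddit3 (19.9) and Ddit4 (4.93) in EtOH alone. Metallothionein and oxidative stress genes had 14 and 10 bound of 28. Sqstm1 (24.5 and 18.3), Txn1 (18.7 and 11.3) and Ftl1 (17.5 and 9.23) were in both, and Mt1 (28.8), Gpx1 (16.3), Hmox1 (2.56) and Mt2 (2.00) in EtOH alone. Among 31 p53 target and damage response genes 9 and 6 were bound and 5 in both, such as Cdkn1a (9.74 and 9.23). Mdc1 (14.0) was bound in EtOH alone and Brca1 (5.06) in 4-OHT alone.

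The transcription machinery itself had few bound genes. Of EtOH-bound TFIID, SAGA and ATAC, general transcription factor and Mediator genes, 50%, 33.3%, 50% and 25% lacked a 4-OHT summit. These shares stand beside 47.7% over all bound genes and rest on 2 to 4 genes each. Of 16 TFIID subunit genes Taf13 (8.23 and 3.68) was bound in both lists, Taf8 (2.44) in EtOH alone and Taf4b (2.88) in 4-OHT alone. Of 23 SAGA and ATAC subunit genes Taf6l (19.9 and 11.3) and Tada3 (12.1 and 16.8) were in both, Eny2 (4.93) in EtOH alone and Usp22 (5.96) in 4-OHT alone. Among 18 general transcription factor genes Gtf2a1 (23.5 and 9.33) and Gtf2h1 (12.9 and 12.3) were in both and Gtf2h4 (12.9) and Gtf2f1 (5.21) in EtOH alone. Of 30 Mediator genes Med16, Med29 (19.9 and 12.3) and Med19 (5.96 and 6.85) were in both. Splicing factors and hnRNPs had 23 bound in EtOH, 14 in 4-OHT and 12 in both of 50. Of those bound in EtOH 47.8% lacked a 4-OHT summit, beside 47.7% over all bound genes. Ddx5 (81.6 and 90.1) and Hnrnpl (32.6 and 5.96) were in both and Hnrnpc (14.0, shared with Rpgrip1) in EtOH alone. Of 19 small nucleolar RNA host genes 9 were bound in each list and 8 in both, among them Snhg5 (5.45 and 22.8) and Snhg8 (24.8 and 10.7). The share of EtOH-bound host genes without a 4-OHT summit was 11.1%, from 9 genes with a median EtOH score of 13.4.

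Of 25 sterol synthesis genes EtOH summits lay at 6 and 4-OHT summits at 5, with Hmgcs1 (7.73 and 4.53), the HMG-CoA synthase gene, as the single one in both. The share of EtOH-bound members without a 4-OHT summit was 83.3%, beside 47.7% over all bound genes, and rests on 6 genes. At equal length 3 members were bound in EtOH and 2 of them lacked a 4-OHT summit, beside 37.5% over all bound genes. Ggps1 (16.3, at a summit shared with Arid4b), Idi1 (8.72) and Mvk (4.06) were among those in EtOH alone. Insig1 (4.53), Mvd (4.21), Srebf1 (4.03) and Sc5d (1.39) were in 4-OHT alone. The 4 in 4-OHT alone scored below that list's median of 5.95. Of 398 zinc finger protein genes with Zfp symbols 36 and 21 were bound, 16 in both, such as Zfp84 (41.9 and 27.7) and Zfp184 (23.9 and 21.5). The other 20 bound in EtOH lacked a 4-OHT summit (55.6%, beside 47.7% over all bound genes). Of 24 actin and tubulin cytoskeleton genes 13 and 8 were bound, and 38.5% of those bound in EtOH lacked a 4-OHT summit, from 13 genes. Tmsb10 (30.2 and 20.3) and Tubb2b (18.7 and 11.9) were in both and Tuba1c (22.6) and Tpm3 (9.74) in EtOH alone.

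Away from genes, the highest summit without a partner lay on the X chromosome at position 128363678, with an EtOH score of 42.3, 11717 bp from the nearest gene end. The nearest summit of any other list lay 8377733 bp away. On X 11 of 36 EtOH summits were kept (30.6%, 16.3 to 48.1), an interval that just reaches the 48.1% of the whole list. The highest kept summit inside a gene lay in Cntnap5b (69.6 and 107), and the highest between genes on chromosome 8 at position 84653232 (90.3 and 67.6), 8099 bp from a gene end. Inside Nkx2-2os (19.9) and Hexim2 (15.2) lay the highest EtOH-only summits of that class.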

How the data were processed

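TBP CUT&RUN, in which a tethered nuclease cuts DNA around an antibody-bound protein, was read from 1 deposited summit list per line and treatment. Each list's values are the authors' −log10 q-values of TBP over IgG, as its peak names and values show. The authors used cutadapt 4.0, Bowtie2 2.4.4, SAMtools 1.15.1, MACS2 2.2.7.1, bedtools, deepTools and mm10, per the submitters' processing notes; steps and settings are not stated there. Yeast spike-in DNA was added per the labels' protocols, and how it was used is not stated. Read depth is unknown. TAF7, TAF10 and TAF12 libraries were not analysed here.

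Summits were paired by distance with code tested on simulated data. Genes and promoters came from RefSeq tables of GRCm38.p6 with 49980 genes with coordinates; starts need a strand, which the promoter table gave for 17492 protein-coding genes. A gene counted as bound with a summit at most 500 bp from its start or end. All but 6 symbols of the lists matched the table. Tied scores at the end of the shortened list (196 summits at 4.06) were taken by position. Members, motifs and the 33 gene lists were chosen with earlier results of these data known. Named genes were the 20 EtOH-only and 20 4-OHT-only protein-coding genes of highest score, the 10 highest kept, Taf7, Taf10, Taf12 and Tbp, up to 6 per list with those without a partner first, and the 5 highest summits per other class. Sequences were printed for the 3 highest summits of each group at protein-coding starts of known strand, which leaves out Hes7 and Aloxe3, and for 3 kept TATAAA promoters. Other names were chosen after their values were seen. Python 3.11.15, NumPy 2.4.6, pandas 2.3.3, SciPy 1.17.1 and matplotlib 3.10.9 were used. Alternatives were other distances, score minimums, equal list lengths, mutual partners, no mitochondrial summits and other motif windows.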

Additional observations from a re-analysis of the deposited data

How the results depend on the processing

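With pairing within 100, 500 and 1000 bp the kept share of EtOH summits was 33.6%, 52.8% and 55.6%, the share of 4-OHT summits with a partner 47.7%, 75% and 78.4%, the kept share at protein-coding starts 34.0%, 52.3% and 53.9%, and at RNA polymerase III genes 61.4%, 88.6% and 93.7%. With scores of at least 5 and at least 10 in both lists the kept share was 49.97% and 51.0%, EtOH-only summits numbered 799 and 407 and 4-OHT-only summits 279 and 125; at 10 the 4-OHT share was 74.0%. With the EtOH list shortened and tied scores taken by position, in reverse, all or none, the kept share was 59.6%, 59.9%, 58.4% and 61.9%, the 4-OHT share 59.7%, 60.0%, 60.4% and 58.4%, and EtOH-only summits numbered 733, 728, 782 and 642; 4-OHT-only summits numbered 718 without the tied scores, and the kept share at starts was 58.0%. TATAAA in the window lay in 18.01% of kept and 6.11% of EtOH-only promoters of the upper 50% of scores. In the lower 50% it lay in 11.6% of kept and 9.32% of EtOH-only promoters. At the position near the start it lay in 6.74%, 1.41% and 3.85% of kept, EtOH-only and 4-OHT-only promoters. These shifts follow from the distances, scores and lengths set. Of the main results under alternatives, 26 values moved beyond counting error or 1.5 times and 18 did not. Of the other values under alternatives, 93 of gene lists, 17 of position classes and 10 of motifs moved so far, and 270, 28 and 83 did not. The shares without histone genes were chosen after seeing the data. A pairing distance has no bearing on gene counts and was not run for them. No paired analysis was possible because the lists carry no replicate numbers, and no replicate could be left out of 1 list per treatment. Read depth, which limits how many peaks are called, is unknown for both lists.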

Other observations

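Some values fall outside the comparisons above and are given without explanation. Of the 33 4-OHT-only promoters with the E-box CACGTG, those with the highest scores were Rab5a (17.1), Mapre1 (13.1), Togaram1 (12.3) and Mgrn1 (10.2). Of the 67 EtOH-only ones they were Catsperd (16.3), Bloc1s3 (12.9), Ankmy2 (12.3) and Aldh3a2, a fatty aldehyde dehydrogenase gene (11.3), and of the 109 kept ones Calr (143.9), Ddx5, an RNA helicase gene (81.6), Klf6 (58.6) and Eif4a1 (51.4). These genes were named after their values were seen. The E-box set also holds Max (3.67), the gene of a partner of MYC, in 4-OHT-only and Mnt (3.89), the gene of another partner of MAX, in EtOH-only promoters.

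Summits away from gene ends were uneven over chromosomes. Chromosome 6 held 9.99% of them in EtOH and 10.8% in 4-OHT, with 5.73% of all genes, and chromosome 8 held 8.73% and 8.83%, with 4.76% of all genes. Their kept shares, 50.8% (44.3 to 57.4) and 47.6% (41.2 to 54.0) over all summits of these chromosomes, lay near the 48.1% of the whole list.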
